A study of Drosophila melanogaster with 6 samples.

Results

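The Dpr, DIP, Beat and Side proteins are surface proteins of the immunoglobulin superfamily that *Drosophila* cells use to recognise each other. Their genes were taken from the deposited expression table by symbol, as every row named *dpr* with a number, *DIP-*, *beat-* or *side*. The rule found 54 of the 17807 genes in the table, namely 21 *dpr*, 11 *DIP*, 14 *beat* and 8 *side* genes. Of these, 18 were expressed, meaning that 3 or more of the 6 libraries reached 10 normalized counts. After *ovo* siRNA 8 of the 18 fell, 1 rose and 9 did not pass the test, while 14.1% of all 7893 genes tested fell and 11.8% rose. Trends in transcript length, base composition and 3′ UTR length are called the length and base composition trends below. With them removed, 4 of the 18 fell and 3 rose, against 15.4% and 14.6% of all genes. Both counts of falls include *dpr21*, which reached 10 normalized counts in the control (*renilla* siRNA) libraries alone and so had to be lower. *side* fell 5.44-fold and *dpr17* rose 3.33-fold.

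The libraries came from Δ*l(3)mbt* OSCs, a *Drosophila* line of ovarian somatic cells (follicle cells of the ovary) that carries a knockout of the chromatin repressor gene *l(3)mbt*. Both groups share this knockout, so neither is a wild-type control. The study asked which genes of these cells depend on *ovo*, a germline gene for a transcription factor with zinc fingers. Cells received a 21-nt siRNA duplex against *ovo* (3 libraries) or against *renilla* luciferase, a gene that the fly lacks (3 libraries), and RNA was harvested at 48 h.

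Dpr proteins (named after defective proboscis extension response) and DIP proteins (Dpr-interacting proteins) bind each other across cell contacts, most DIPs with several Dprs as partners. They are known from the nervous system, where their combinations mark neurons and help to match synaptic partners. Beat proteins (beaten path) bind Side proteins (sidestep) in the same manner. Motor axons that carry Beat-Ia follow cells that carry Side on the way to their muscles. Ovarian follicle cells are an epithelium and not a neural tissue.

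The duplex against *ovo* is shown because it defines the treatment compared here. Capitals mark the seed (bases 2 to 8) of the antisense strand, and both strands are written 5′ to 3′ as the study designed them.
ovo siRNA antisense strand: uCGUCGUCcacgcagcuccuu
ovo siRNA sense strand: ggagcugcguggacgacgagg
The duplex matched 1 place in the dm6 genome, at X:5066359-5066381, within the coding sequence of 5 of 5 annotated *ovo* transcripts.

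The libraries held between 2759594 and 21481506 reads, and *renilla* siRNA replicate 3 was the smallest by far (the next held 11337660). A second principal component with 30.8% of the variance set this library apart from the rest of its group. The target *ovo* was at 961, 885 and 875 normalized counts after *ovo* siRNA and at 1300, 1590 and 1642 after *renilla* siRNA. It fell 1.66-fold (log2 fold change −0.73 ± 0.13, SE, limma adjusted p = 0.00862). This call was lost without *ovo* siRNA replicate 2 (−0.71, adjusted p = 0.0601) and with the length and base composition trends removed (−0.28, adjusted p = 0.254). It was also lost with the length trend alone removed (−0.39, adjusted p = 0.162). The follicle cell markers *tj* and *Fas3* were at 12763 ± 1034 and 2987 ± 65.0 normalized counts in the *renilla* siRNA group (SD, n = 3), and *upd1* had no reads in any library. Of the follicle cell markers, 9 of 14 expressed fell and 1 rose, against 14.1% and 11.8% of all genes tested. These counts come from the main test, in which the length and base composition trends were not removed. The 9 include *ImpL2*, whose level is uncertain because it overlaps *CG46460* on the same strand. The summed level of the follicle cell markers was 78695 to 86291 in the *renilla* siRNA libraries and 47792 to 58470 in the *ovo* siRNA libraries. High genes weigh most in this sum, such as *chinmo*, with means of 23472 and 9601. The log2 fold change was below 0 for 11 of the 14 and above 0 for 3, *piwi*, *eya* and *fs(1)Yb*, of which *fs(1)Yb* rose. In such bulk samples, fewer cells of a type and less RNA per cell cannot be told apart.

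Expression of the 4 families was uneven. It was found for 9 of 21 *dpr* genes, 4 of 11 *DIP* genes, 2 of 14 *beat* genes and 3 of 8 *side* genes. Divided by exonic length, the highest levels in the *renilla* siRNA group were those of *beat-IIIc* with 208 ± 13.1 normalized counts per kb, *beat-VII* with 139 ± 20.4, *DIP-kappa* with 119 ± 34.2 and *dpr17* with 106 ± 35.4. *beat-VII*, *DIP-kappa* and *dpr17* were not separated beyond their spread. *dpr14*, *side*, *DIP-epsilon* and *dpr8* followed between 51.5 and 40.1 per kb, with neighbours in this order again within their spread. The exonic length joins the exons of all transcripts, and the order depends on this choice. For *side* it was 11.7 kb against 5059 bases in the canonical transcript, and for *beat-IIIc* 3.90 kb against 1709 bases. The lowest level of an expressed member was that of *dpr2*, with 3.52 per kb. The plot of levels by library shows each of them before division by length.

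**Figure D1:**
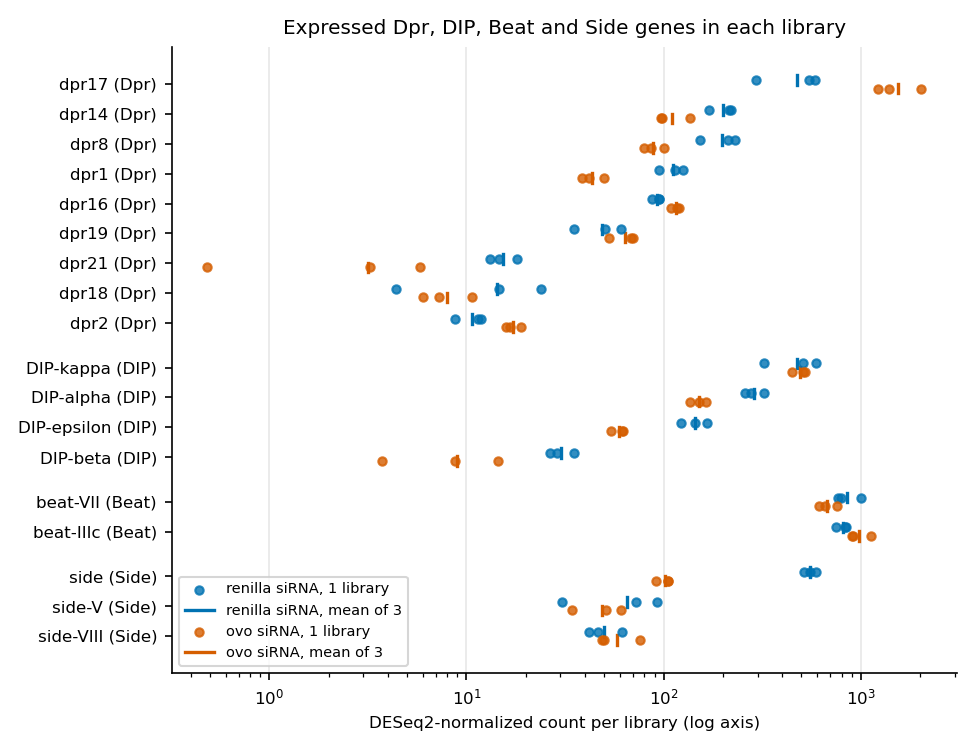
Normalized counts (x axis, log scale) of the 18 expressed genes, by family, in each of 3 *renilla* siRNA libraries (blue) and 3 *ovo* siRNA libraries (orange), with group means as vertical bars. The orange points of *side* lie between 91.7 and 106 and the blue between 516 and 593, whereas those of *dpr17* are in the opposite order.

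The other 36 genes were below the limit. No read at all was found for *dpr5*, *dpr13*, *dpr15*, *DIP-delta*, *DIP-iota*, *beat-IIIa*, *beat-Va*, *beat-Vb* and *beat-VI* (9 genes), where the limit that 0 reads allow was 1.39 normalized counts for the deepest library and 13.1 for the shallowest. The annotation places all exonic sequence of *beat-IIIa* also in *CG34106* on the same strand, so its value is uncertain. Another 21 genes had some reads but under 10 normalized counts in every library, among them *dpr6*, *dpr10*, *DIP-gamma*, *DIP-eta*, *beat-Ia*, *beat-IIa* and *side-II*. The remaining 6, *side-VII*, *side-IV*, *beat-IIb*, *dpr4*, *dpr7* and *dpr12*, reached 10 in 1 or 2 libraries.

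These 6 show where the limit falls. Just outside it, *side-VII* was at 16.4, 16.2 and 8.76 normalized counts after *renilla* siRNA and at 6.79, 5.57 and 7.98 after *ovo* siRNA. *dpr4* was at 6.38, 18.1 and 17.5 after *renilla* siRNA and at 2.91, 4.64 and 3.63 after *ovo* siRNA. *dpr7* was at 2.73, 7.64 and 21.9 after *renilla* siRNA and at 1.46, 0.929 and 1.45 after *ovo* siRNA. *side-VII*, *dpr4* and *dpr7* were thus lower in all *ovo* siRNA libraries than in all *renilla* siRNA libraries, but none was tested. All 6 genes reached 10 in *renilla* siRNA libraries alone, so lower values after *ovo* siRNA are partly built into this selection. Among all genes tested the groups did not overlap for 45.2%, but those genes had passed the limit and these 6 had not. *side-IV* ranged from 0 to 12.8, *beat-IIb* from 0 to 11.8 and *dpr12* from 0.911 to 13.1, each with overlap. In *renilla* siRNA replicate 3 a single read is worth 4.38 normalized counts, and the highest values of *dpr7* and *dpr12* there rest on 5 and 3 reads. The values of *side-VII* and *dpr4* in that library rest on 2 and 4 reads. Just inside the limit were *dpr21*, *dpr18* and *dpr2*. *dpr21* passed through the *renilla* siRNA libraries alone, so it had to be lower after *ovo* siRNA. *DIP-beta* passed through these and 1 *ovo* siRNA library.

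Known partners were not always found together, and the examples here were picked to show this. They do not cover all known pairs, and any pairs with both partners expressed are not listed. *DIP-alpha*, whose protein binds Dpr6 and Dpr10, was expressed, while *dpr6* did not exceed 8.20 normalized counts and *dpr10* had 1 read in all. *dpr16* and *dpr17*, whose proteins bind DIP-gamma, were expressed, while *DIP-gamma* had 10 reads over the 6 libraries and at most 8.76 normalized counts. *side* was expressed, and *beat-Ia*, which encodes its receptor on motor axons, had 1 read. These are RNA levels in 1 cell line and do not show which proteins were at the surface.

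Over all genes tested, 14.1% fell and 11.8% rose at an adjusted p under 0.05, 25.9% in all. Of the 18 expressed genes of the 4 families, 8 fell (*side*, *dpr21*, *DIP-beta*, *dpr1*, *DIP-epsilon*, *dpr8*, *DIP-alpha* and *dpr14*) and *dpr17* rose. The groups did not overlap for 13 of the 18, and over all genes this held for 45.2%. The median log2 fold change was −0.44 for the 18 genes and 0.04 for all genes tested. Since filtering favours the group in which a low gene is high, these shares are a description of the families and not a test of them. The plot of fold changes gives each gene with its interval.

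**Figure D2:**
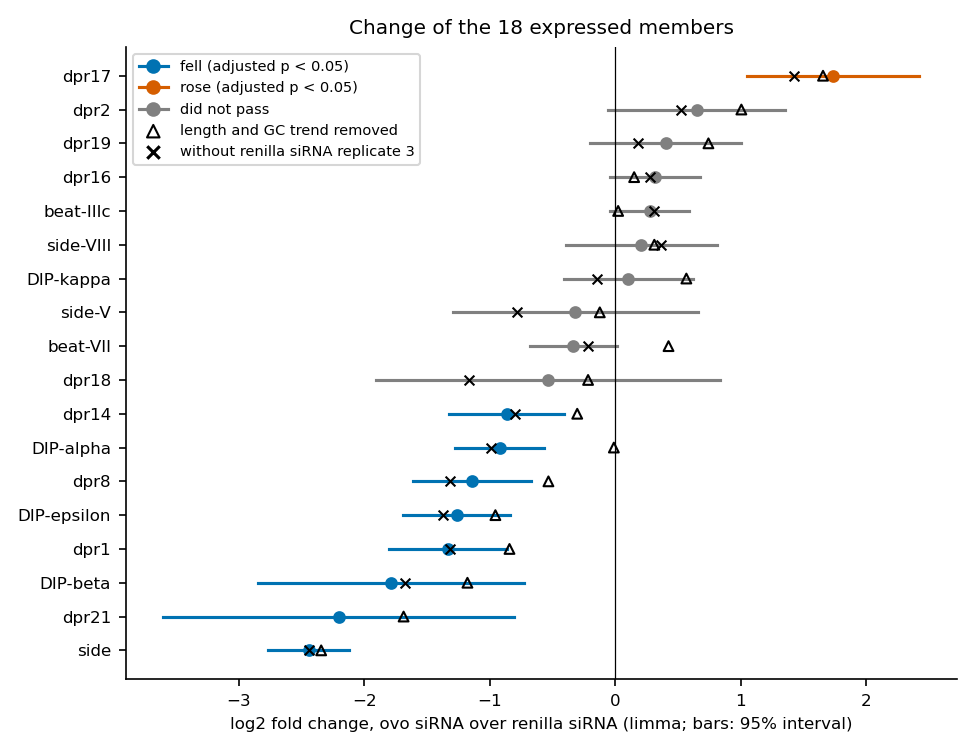
The log2 fold change of the 18 expressed genes (x axis, *ovo* siRNA over *renilla* siRNA) with the 95% interval of the limma fit, coloured by whether the gene fell (8), rose (1) or did not pass (9). Triangles give the value with the length, base composition and 3′ UTR length trends removed, and crosses that without *renilla* siRNA replicate 3. *DIP-alpha* and *beat-VII* are the genes whose triangles lie farthest from their points.

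The *dpr* family held the only rise and 4 of the falls. *dpr17* (3R:12094876-12111420, plus strand) was at 586, 545 and 293 normalized counts after *renilla* siRNA and at 2030, 1398 and 1223 after *ovo* siRNA. All *ovo* siRNA libraries exceeded all *renilla* siRNA libraries, although both groups were spread over a wide range. The rise was 1.74 ± 0.30 on the log2 scale (95% interval 1.05 to 2.42, limma adjusted p = 0.00698), which placed *dpr17* 24th among all rises. It was 1.42 without *renilla* siRNA replicate 3, the lowest library (adjusted p = 0.000158). *dpr17* passed in all 19 alternative analyses.

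*dpr16*, whose protein shares the partner DIP-gamma with that of *dpr17*, was at 94.7, 94.5 and 87.6 after *renilla* siRNA and at 109, 117 and 120 after *ovo* siRNA. The groups did not overlap, but the difference did not pass (log2 fold change 0.31 ± 0.15, adjusted p = 0.173). Per kb, *dpr17* was 2.19 to 4.04 times as high as *dpr16* in the *renilla* siRNA libraries and 6.68 to 12.2 times in the *ovo* siRNA libraries. The family member nearest to *dpr17* on the chromosome, *dpr15*, lies 27.4 kb away and had no reads in any library.

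The 4 falls of the *dpr* family differed in how firmly they held. *dpr1* (2R:20698483-20750442, plus strand), the founding member, required for the aversion to salt in proboscis extension, was at 94.7, 126 and 114 after *renilla* siRNA and at 49.97, 38.5 and 42.1 after *ovo* siRNA. The groups were well apart, and *dpr1* fell 2.52-fold (log2 fold change −1.34 ± 0.20, adjusted p = 0.00514). It passed in all 19 alternatives.

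*dpr8* (X:14322226-14462351, plus strand) was at 213, 230 and 153 after *renilla* siRNA and at 100, 79.4 and 86.3 after *ovo* siRNA, again without overlap. It fell 2.21-fold (−1.14 ± 0.20, adjusted p = 0.00814). *dpr14* (X:7903704-7908286, minus strand) was at 169, 216 and 219 after *renilla* siRNA and at 137, 98.0 and 97.2 after *ovo* siRNA. The lowest *renilla* siRNA library was above the highest *ovo* siRNA library, and *dpr14* fell 1.82-fold (−0.87 ± 0.20, adjusted p = 0.0184). Both calls were lost with the length and base composition trends removed, at −0.53 for *dpr8* and −0.30 for *dpr14* (adjusted p = 0.0637 and 0.252). The call of *dpr8* was also lost without *ovo* siRNA replicate 2 (−1.07, adjusted p = 0.0542). That of *dpr14* was also lost without *ovo* siRNA replicate 2 or 3 or without *renilla* siRNA replicate 2 (−0.79, −0.78 and −0.81, with adjusted p of 0.0941, 0.0804 and 0.0677).

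*dpr21* (2R:3066499-3191011, plus strand) was at 14.6, 18.1 and 13.1 after *renilla* siRNA and at 0.485, 3.25 and 5.80 after *ovo* siRNA. These values rest on 16, 19 and 3 reads and on 1, 7 and 8 reads. The fitted difference was −2.21 ± 0.60 (adjusted p = 0.0331), and the call was lost in 5 of the 15 alternatives that could test the gene, among them without *ovo* siRNA replicate 1 or 2 (−1.59 and −2.35, adjusted p = 0.0582 and 0.0955).

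The other *dpr* genes did not pass. *dpr18* was at 14.6, 23.9 and 4.38 after *renilla* siRNA and at 10.7, 6.04 and 7.25 after *ovo* siRNA. The value of 4.38 is a single read, and without that library *dpr18* was lower with an adjusted p of 0.0304 (−1.16, against −0.54 and 0.532 with it). *dpr19* overlapped between the groups (35.0 to 61.0 and 52.9 to 69.6, adjusted p = 0.29). *dpr2* was at 8.76 to 11.8 after *renilla* siRNA and at 15.95 to 18.9 after *ovo* siRNA (0.65 ± 0.30, adjusted p = 0.158), higher in every *ovo* siRNA library, and it passed with quantile normalization (1.16, adjusted p = 0.025).

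Of the *DIP* genes, 3 of the 4 expressed fell. *DIP-epsilon* (2L:6377771-6411326, minus strand) was at 145, 166 and 123 after *renilla* siRNA and at 53.9, 62.2 and 61.6 after *ovo* siRNA. Its libraries were tight after *ovo* siRNA, and it fell 2.40-fold (−1.26 ± 0.18, adjusted p = 0.00457), in all 19 alternatives as well.

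*DIP-alpha* (X:3507245-3571649, minus strand), known in motor neurons and in the optic lobe for synaptic matching, was at 279, 322 and 258 after *renilla* siRNA and at 164, 150 and 136 after *ovo* siRNA. The groups were apart by more than the range of either, and it fell 1.89-fold (−0.92 ± 0.15, adjusted p = 0.00661). The call held in 18 of 19 alternatives. The exception was the removal of trends with transcript length, base composition and 3′ UTR length, after which no difference was left (−0.01, adjusted p = 0.958). With the length trend alone removed it was −0.51 (adjusted p = 0.0438).

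*DIP-beta* (X:21422115-21457738, minus strand) was at 26.4, 28.6 and 35.0 after *renilla* siRNA and at 8.73, 3.72 and 14.5 after *ovo* siRNA. It had 8 to 30 reads per library, the fitted difference was −1.79 ± 0.46 (adjusted p = 0.0272), and the call was lost in 7 of 17 alternatives. Leaving out *ovo* siRNA replicate 1 or 2, or *renilla* siRNA replicate 1 or 2, was enough for that, with values of −1.85, −1.33, −1.87 and −1.82 and adjusted p of 0.0679, 0.0857, 0.063 and 0.0819.

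*DIP-kappa*, the most highly expressed *DIP* gene, was at 590, 507 and 324 after *renilla* siRNA and at 523, 510 and 450 after *ovo* siRNA. The groups overlapped and the difference did not pass (0.10 ± 0.22, 95% interval −0.41 to 0.62, adjusted p = 0.764). Its direction was not stable, at −0.15 without *renilla* siRNA replicate 3 and 0.57 with the trends removed (adjusted p = 0.325 and 0.035). Per kb, *DIP-alpha* was 0.210 to 0.354 times as high as *DIP-kappa* in the *renilla* siRNA libraries and 0.131 to 0.1397 times in the *ovo* siRNA libraries.

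Both expressed *beat* genes stayed high in both groups, and neither passed. *beat-IIIc* was at 833, 751 and 845 after *renilla* siRNA and at 1134, 912 and 905 after *ovo* siRNA (0.27 ± 0.14, adjusted p = 0.175). *beat-VII* was at 769, 797 and 998 after *renilla* siRNA and at 755, 617 and 656 after *ovo* siRNA (−0.33 ± 0.15, adjusted p = 0.139). The groups did not overlap for either gene, in opposite directions, and the 95% intervals ran from −0.04 to 0.59 and from −0.68 to 0.01. With the length and base composition trends removed *beat-VII* had the opposite sign (0.42, adjusted p = 0.0373). The ratio of *beat-IIIc* to *beat-VII* per kb was 1.33 to 1.70 in the *renilla* siRNA libraries and 2.17 to 2.36 in the *ovo* siRNA libraries. *beat-IIIa*, the family member nearest to *beat-IIIc* at a distance of 14.5 kb, had no reads.

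The clearest fall was that of *side* (3R:27375088-27437482, minus strand), the founding gene of its family, which encodes the attractant that Beat-Ia recognises on the substrate of motor axons. It was at 516, 593 and 556 normalized counts after *renilla* siRNA and at 91.7, 106 and 106 after *ovo* siRNA. Both groups were tight, and the highest *ovo* siRNA library was below the lowest *renilla* siRNA library by a wide margin. The mean went from 555 ± 38.6 to 101 ± 8.19 (SD, n = 3), a log2 fold change of −2.44 ± 0.14 (95% interval −2.77 to −2.12, limma adjusted p = 0.00127), the 55th largest fall of 7893 genes. Over the 19 alternatives it ranged from −2.50 to −2.25 and always passed. *side* lies 101.8 kb from *l(3)mbt*, the gene knocked out in both groups, which was at 2334 ± 582 and 2911 ± 426 and did not pass (adjusted p = 0.267). It passed as a rise with the length and base composition trends removed (0.31, adjusted p = 0.0125) and with the length trend alone removed (0.57, adjusted p = 0.00199). Counts over the whole gene do not show whether the deleted stretch is missing.

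*side-V* was at 72.9, 92.6 and 30.7 after *renilla* siRNA and at 60.6, 34.4 and 50.8 after *ovo* siRNA. The groups overlapped through *renilla* siRNA replicate 3, and the difference did not pass (−0.32 ± 0.42, adjusted p = 0.61) but did so without that library (−0.78, adjusted p = 0.0243). *side-VIII* was at 42.0 to 61.3 after *renilla* siRNA and at 48.6 to 76.2 after *ovo* siRNA, with overlap (0.21 ± 0.26, adjusted p = 0.588).

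Summed over each family, these changes gave different pictures. The *dpr* sum went from 1211 ± 191 to 2012 ± 452 normalized counts, since *dpr17* made up 39.2% of it after *renilla* siRNA and 77.1% after *ovo* siRNA. The *side* sum went from 694 ± 54.2 to 226 ± 20.7, and the share of *side* in it from 80.0% to 44.7%. The *DIP* sum went from 942 ± 164 to 716 ± 44.1, while the *beat* sum was 1674 ± 149 and 1669 ± 195. The sum of all 54 genes was 4522 ± 241 and 4623 ± 694, so the changes of single genes did not show in the total. These sums were not tested.

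**Figure D3:**
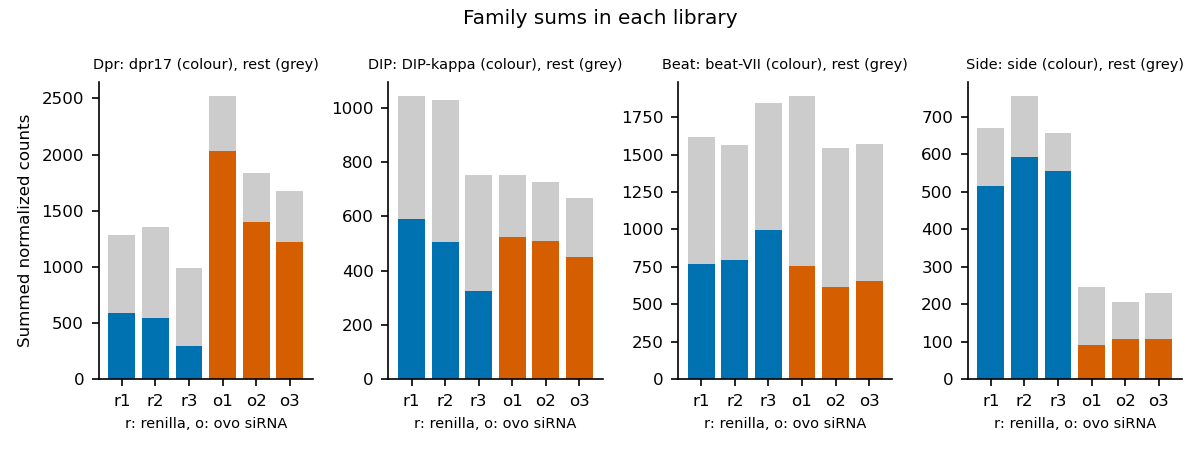
Summed normalized counts (y axis, from 0) of each family in the *renilla* siRNA libraries (r1 to r3, blue) and the *ovo* siRNA libraries (o1 to o3, orange), with the gene of the highest mean after *renilla* siRNA in colour and the rest of the family in grey. The coloured part grows after *ovo* siRNA for *dpr17* and shrinks for *side*.

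**Figure D4:**
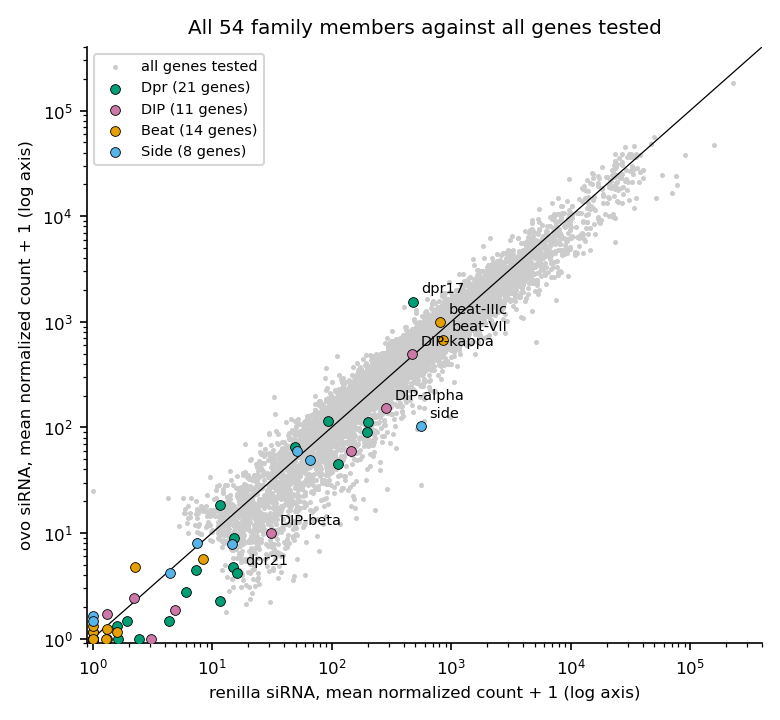
Mean normalized count + 1 after *renilla* siRNA (x axis) and *ovo* siRNA (y axis), both on log axes, for all 7893 genes tested (grey) and for all 54 genes of the families (coloured), with the line of equal levels. *side* lies far below the line, *dpr17* above it, and the 36 genes that are not expressed gather at the lower left.

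The genes of these families are long. The 18 expressed genes spanned a median of 40.7 kb against 2.81 kb over all genes tested, with a median transcript of 3696 against 2036.5 bases, and 16 of the 18 had a transcript longer than the median. In these data the fold change varied with transcript length. Among the genes with the longest transcripts (from 3792 bases, the last of 5 bins of near equal size), which held 9 of the 18, the median log2 fold change was −0.25 and 26.8% fell, and 5 of these 9 fell. With trends in transcript length, base composition and 3′ UTR length removed from each library, 4 of the 18 fell (*side*, *dpr21*, *dpr1* and *DIP-epsilon*) and 3 rose (*dpr17*, *beat-VII* and *DIP-kappa*), against 15.4% and 14.6% of all genes. *dpr14*, *dpr8*, *DIP-alpha* and *DIP-beta* no longer passed, the last at −1.18 (adjusted p = 0.111). With the length trend alone removed, an alternative chosen after the data were seen, the same 8 genes fell, against 20.1% of all genes.

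**Figure D5:**
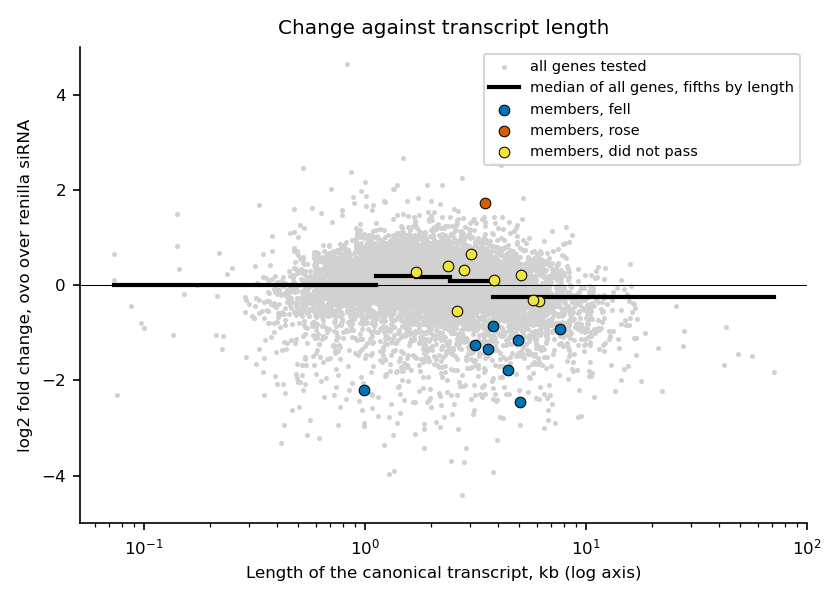
The log2 fold change (y axis, *ovo* siRNA over *renilla* siRNA) against the length of the canonical transcript (x axis, kb, log scale) for all genes tested (grey) and the 18 expressed genes (coloured by result). Black lines give the median of all genes in 5 bins by length, which is −0.25 in the last bin, and *side* lies far below it.

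Without *renilla* siRNA replicate 3, the library that stood apart, 9 genes fell and *dpr17* rose, against 24.4% and 26.2% of all genes. *side*, *dpr1*, *DIP-epsilon*, *dpr8*, *DIP-alpha*, *dpr14* and *DIP-beta* still fell, *side-V* and *dpr18* were added, and *dpr21* was no longer tested because it did not reach the limit. Without *ovo* siRNA replicate 2 the falls were 4 and the rises 1, against 4.84% and 1.48% of all genes, and without *renilla* siRNA replicate 2 they were 5 and 1, against 7.14% and 4.8%.

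The expressed genes were spread unevenly over the chromosomes. All 5 on the X (*DIP-alpha*, *dpr14*, *dpr8*, *dpr18* and *DIP-beta*) were expressed, against 13 of 49 elsewhere. All 5 had lower means after *ovo* siRNA and 4 fell, whereas 15.7% of all X-linked genes tested fell and 15.9% rose. With the length and base composition trends removed, none of the 5 passed. None of the 4 genes on 3L was expressed, and 4 of 21 on 3R were. In all, 52.2% of the X-linked genes in the table and 44.3% of those on 3L were expressed.

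The motif CNGTTA, described for Ovo, was looked for in the 250 bases before and 50 bases after each gene start, on both strands. It was present at 7 of the 18 expressed genes and at 22 of the 54, against 41.6% of all expressed and 37.7% of all genes. The stricter CCGTTA, a part of it, was present at 3 of the 18 against 10.7%. *side* and *dpr17* had neither at any annotated start. The following windows are shown because they belong to genes that fell, or in the last case to the highest gene per kb, which did not pass. Each is written 5′ to 3′ on the strand of the gene, with the match, or its reverse complement, in capitals, and its first base is counted from the gene start.
DIP-alpha, X:3571763-3571788, −129 from the start: aaagtgctgcCTGTTAttgggctgct
dpr14, X:7908418-7908443, −147 from the start: cccgctatatTAACGGtaaattattg
dpr8, X:14321998-14322023, −218 from the start: aagtggatttCAGTTAagcggagcgg
DIP-epsilon, 2L:6411456-6411481, −145 from the start: gttttcggggCTGTTAgtagcagaaa
beat-IIIc, 2L:17260694-17260719, 26 from the start: gcgagcattgTAACGGatcgcaggtc
The dm6 sequence is that of RefSeq. A match of letters is not a binding site, and the lack of one says nothing about Ovo binding.

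The wider set of guidance genes was examined beside the 4 families. Of 43 listed axon guidance receptors, ligands and adhesion partners, 33 were expressed, of which 13 fell, 2 rose and 18 did not pass, with a median log2 fold change of −0.43. Over all genes tested 14.1% fell and 11.8% rose, with a median of 0.04. The leucine-rich repeat gene *Con* fell 3.85-fold, from 1051 ± 252 to 269 ± 32.3. *Lar*, a receptor tyrosine phosphatase of axons, fell 2.57-fold, from 185 ± 13.8 to 71.7 ± 11.1. *PlexA*, a semaphorin receptor, fell 2.34-fold, from 7761 ± 1473 to 3287 ± 254, and the secreted guidance cue *NetA* rose 1.86-fold, from 163 ± 15.6 to 302 ± 5.83. *Con*, *Lar*, *PlexA* and *NetA* had adjusted p between 0.00174 and 0.0055. *cDIP*, which encodes a secreted partner of Dprs and DIPs, was at 16.4 ± 10.7 and 20.4 ± 2.50 and did not pass (adjusted p = 0.498).

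Of 35 other surface or secreted genes of the immunoglobulin superfamily, 28 were expressed, of which 10 fell, 1 rose and 17 did not pass (median −0.29), against the same 14.1% and 11.8% of all genes. *Fas2*, a homophilic adhesion molecule, fell 2.19-fold and *kek1*, an inhibitor of the EGF receptor, fell 2.07-fold. *vn*, a neuregulin-like EGF receptor ligand, fell 2.35-fold. *ImpL2*, which binds insulin-like peptides, fell 7.81-fold, but it overlaps *CG46460* on the same strand, so its level is uncertain. Without *renilla* siRNA replicate 3 the falls were 23 among the guidance genes and 17 among these, where 24.4% of all genes fell. With the length and base composition trends removed they were 7 and 5, where 15.4% of all genes fell.

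Since the families are known from neurons, neuron and glia markers were measured as well. Of 18 neuron markers 8 were expressed, of which 4 fell (*para*, *Syx1A*, *cpx* and *futsch*) and none rose. The summed level of the list was 16920 to 21120 in the *renilla* siRNA libraries and 7765 to 9285 in the *ovo* siRNA libraries. *futsch*, *Syx1A* and *cpx* were highest after *renilla* siRNA, with means of 7603, 4839 and 4801, against 1622, 2339 and 2513 after *ovo* siRNA. *elav*, the general neuronal RNA-binding protein gene, was at 2015 ± 357 and 1693 ± 109 and did not pass (adjusted p = 0.299). The presynaptic genes *nSyb*, *brp* and *Syt1* had means under 10 in both groups. Of 9 glia markers 4 were expressed and 1 fell, and *gcm2* had no reads. Of the expressed markers of other cells, 2 of 6 fell and 1 rose for muscle, and 0 of 4 passed the test for hemocytes. For germ cells 2 of 5 fell, namely *Sxl* and *ovo*, the target of the siRNA, whose fall was the aim of the treatment. These counts stand against 14.1% of all genes that fell and 11.8% that rose. With the length and base composition trends removed, the sign turned for *cpx* and for the muscle markers *sls* and *bt*, which had fallen. The part of these changes in those of the Dpr, DIP, Beat and Side genes was not tested.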

How the data were processed

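RNA was sequenced from 3 *ovo* siRNA and 3 *renilla* siRNA libraries made from poly(A)-selected RNA with a strand-specific kit. Per the submitters' notes, reads were processed with STAR 2.7.3a, cutadapt 1.18, DESeq2 1.30.1 and the featureCounts program of Subread 1.5.3 on the BDGP6 (dm6) genome. The authors deposited the read signal per gene as DESeq2-normalized counts. Every value was a whole number of reads divided by the size factor of its library (100% within 0.01), so the reads were recovered. A second deposited table holds the authors' own comparison (mean level, log2 fold change with its standard error, Wald statistic, raw and adjusted p) and was not used.

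Genes that reached 10 normalized counts in 3 or more libraries (7893) were tested on log2(normalized count + 1) with limma 3.58.1 (R 4.3.3), using a mean-dependent prior variance, a two-sided moderated test without covariates and Benjamini-Hochberg adjustment over all genes kept, with a threshold of 0.05. Fold changes are *ovo* siRNA over *renilla* siRNA on that scale and are too small for low genes. The study describes the 3 replicates of each group as distinct samples, but whether they came from separate cultures is not stated. The p values therefore measure the spread between these samples, which may be technical. The 3 reads that a count of 0 allows cover counting error only, as the reads carry no molecular identifiers.

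Symbols were matched to a later Ensembl annotation of the same build (17019 directly, 723 by an older symbol, 65 not matched, all 54 family members directly). Length and base composition were known for 99.7% of genes tested and 3′ UTR length for 95.4%, and the rest were set to the median. Exonic length is that of the union of exons. The members and the gene lists (axon guidance, other immunoglobulin genes, markers of neurons, glia, follicle cells, muscle, hemocytes and germ cells) were chosen with earlier results of these data known. All expressed members were named, unexpressed members with values where a library reached 10, and from the guidance and immunoglobulin lists up to 4 genes with the smallest adjusted p. *cDIP*, *elav*, *nSyb*, *brp*, *Syt1*, *tj*, *Fas3*, *upd1* and *gcm2* were added by choice after their values were seen.

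As alternatives, the recovered reads were tested with DESeq2 1.42.0 and with edgeR 4.0.16, and limma was rerun with a pseudocount of 0.5 or 5, without filter or with a minimum of 50, with TMM or quantile scaling, with a robust prior, with replicates as a block, on reads thinned to the smallest library, after removal of trends (natural splines, 5 degrees of freedom) and without each library in turn. On simulated data for this comparison with 7893 genes and 200 changed, the procedure called 10.4% of genes changed 1.5-fold, 56.7% of those changed 2-fold and 92.4% of those changed 4-fold. Of its calls 6.19% were false. The simulated counts were drawn for each gene independently and without a trend with transcript length, and 25.9% of genes were called in the data. These shares may therefore not hold for the data.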

Additional observations from a re-analysis of the deposited data

How the results depend on the processing

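*side*, *dpr17*, *dpr1* and *DIP-epsilon*, 4 of the 9 genes called, passed in each of the 19 alternatives run. The number of members that fell (8) was 4 with the length and base composition trends removed and 4 to 9 when 1 library was left out, and the number that rose (1) was 3 with the trends removed, 2 with quantile normalization and 1 without any single library. Over all genes, the 931 rises became 1475 with the replicate block, 1581 with the length trend alone removed (chosen after seeing the data), 559 with the reads thinned, and 116 to 2022 when 1 library was left out, and the 1114 falls became 380 to 1883. With edgeR and DESeq2 on the recovered reads the members gave 8 falls and 1 rise each, and all genes 1260 and 1492 falls and 1024 and 1142 rises. The sign turned for *beat-VII* (0.42), *cpx* (0.35), *sls* (0.27) and *bt* (0.16) with the trends removed, for *sls* (0.18) with the length trend alone removed, and for *DIP-kappa* without *renilla* siRNA replicate 3 (−0.15, in a range of −0.15 to 0.28 when 1 library was left out). The cause was not tested. The number of expressed members (18) was 22 at a minimum of 5 normalized counts, 15 at 20, 17 after thinning and 16 to 18 with 1 library left out. Same-numbered libraries deviated from their group means with correlations of 0.44, −0.14 and 0.46, so the numbers were not taken as pairs, and not every library correlated best with its own number. The block changed no call among the members. In the smallest library 1 read equals 4.38 normalized counts, which limits *dpr21*, *dpr18*, *dpr2* and *DIP-beta*.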
